A study of Homo sapiens with 8 samples.

Results

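The Fe65 family is a small group of adaptor proteins, here represented by APBB1 (Fe65), APBB2 and APBB3, and it was examined together with its membrane partners APP, APLP1 and APLP2 and its nuclear partner KAT5. These 7 genes were taken by symbol from the 58233 gene identifiers of the counts table. All 7 had an identifier there. RNA was sequenced from MCF10A cells, a human breast epithelial line that had been transformed with the H-Ras oncogene in every group. Control cells were compared with RBM6-KO cells, a knockout of the RNA-binding protein RBM6 made with a CRISPR nickase and represented by 1 clone, RBM6-KO1, so that clone and knockout cannot be told apart. Each genotype was measured untreated and 12 h after 5 Gy of ionizing radiation (IR), with 2 biological replicates per group, A and B, and 8 libraries in all. The question was whether the paralogs and partners of APBB1 differed between genotypes where APBB1 mRNA was low, and whether they responded to IR.

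Fe65 proteins carry a WW domain and a pair of phosphotyrosine-binding (PTB) domains. The C-terminal PTB domain binds the short intracellular tail of APP, a transmembrane protein that is cut by secretases to release its extracellular part and then its intracellular domain (AICD). The other PTB domain binds, among others, KAT5 (TIP60), the catalytic subunit of a histone acetyltransferase complex that acts in transcription and in the response to DNA double-strand breaks. APBB1 and APLP1 are best known from neurons, whereas APBB2, APP, APLP2 and KAT5 are expressed in most tissues.

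All positions are on GRCh38 from GENCODE v44. APBB1 (ENSG00000166313) lies at chr11:6395125-6419414 on the minus strand, APBB2 (ENSG00000163697) at chr4:40810027-41216714 on the minus strand and APBB3 (ENSG00000113108) at chr5:140558268-140564781 on the minus strand. APP (ENSG00000142192) lies at chr21:25880535-26171128 on the minus strand, APLP1 (ENSG00000105290) at chr19:35867899-35879792 on the plus strand and APLP2 (ENSG00000084234) at chr11:130068147-130144811 on the plus strand. KAT5 (ENSG00000172977) lies at chr11:65711996-65719604 on the plus strand. The annotated proteins held 710 residues for APBB1, 759 for APBB2 and 486 for APBB3, and in a global alignment the residues identical to APBB1 were 349 with APBB2 (49.2% of the shorter protein, APBB1) and 199 with APBB3 (40.9% of the shorter protein, APBB3). Between the transcripts of any pair of paralogs the longest identical run was 22 bases, found between APBB1 and APBB2, against a read length of 150 bases.

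The APP family is bound by Fe65 through a short motif near the C terminus, and the coding stretch around it is shown because it is the sequence the members have in common. Capitals mark the codons of the asparagine-proline-threonine-tyrosine (NPTY) motif, and each stretch is 39 bases from the annotated transcript, 5′ to 3′.
APP: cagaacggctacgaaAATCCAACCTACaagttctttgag
APLP1: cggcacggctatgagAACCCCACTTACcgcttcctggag
APLP2: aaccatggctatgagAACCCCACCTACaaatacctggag
APLP1 and APLP2 matched at 30 of the 39 bases, and APP matched each of them at 27. All 3 genes thus carried the motif, whatever their level in these libraries.

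For APBB1 the sequence that matters to the study is the start of its last exon, because a shorter last exon gives a transcript without a stop codon, a class that is degraded by nonstop decay. Both acceptors are shown with 15 bases on either side of the exon boundary, on the minus strand, with the acceptor AG in capitals.
coding acceptor, chr11:6395687-6395716: tgcttgcctccgcAGcttcgctaccagaag
alternative acceptor, chr11:6395265-6395294: ccccatgtgtttcAGgtggaacaggaggaa
The coding acceptor opens an exon of 577 bases and the alternative one an exon of 155 bases, 422 bases further downstream. The stop codon, TGA at chr11:6395534-6395536, lies between them, in the part that only the longer exon holds. Counts per gene sum both kinds of transcript, so the levels below are of APBB1 RNA of either kind, and the choice of acceptor was not analysed here.

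Library totals lay between 15355281 counts in RBM6-KO untreated B and 29832009 in control IR B. Levels below are CPM, the count relative to a library total scaled by the trimmed mean of M values (TMM). An undetected gene could still have up to 3 counts, which is 0.0966 to 0.204 CPM. RBM6 itself, the targeted gene, was at 66.9 and 68.8 CPM in untreated control cells, 61.5 and 63.2 CPM in untreated RBM6-KO cells, 54.5 and 48.9 CPM in control cells after IR, and 44.01 and 33.9 CPM in RBM6-KO cells after IR. The RBM6-KO libraries were below the control libraries in both conditions, but the log2 fold change was -0.14 (SE 0.15, adjusted p = 0.712) untreated and -0.40 (SE 0.20, adjusted p = 0.536) after IR in edgeR's quasi-likelihood fit. RBM6 mRNA did not pass the test in these libraries, so its level does not check the label RBM6-KO, whose guides cut in exon 3. All p-values measure the spread between these libraries of 1 clone and 1 control line. The 12 breast epithelial markers were above 1 CPM in every library.

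**Figure D1:**
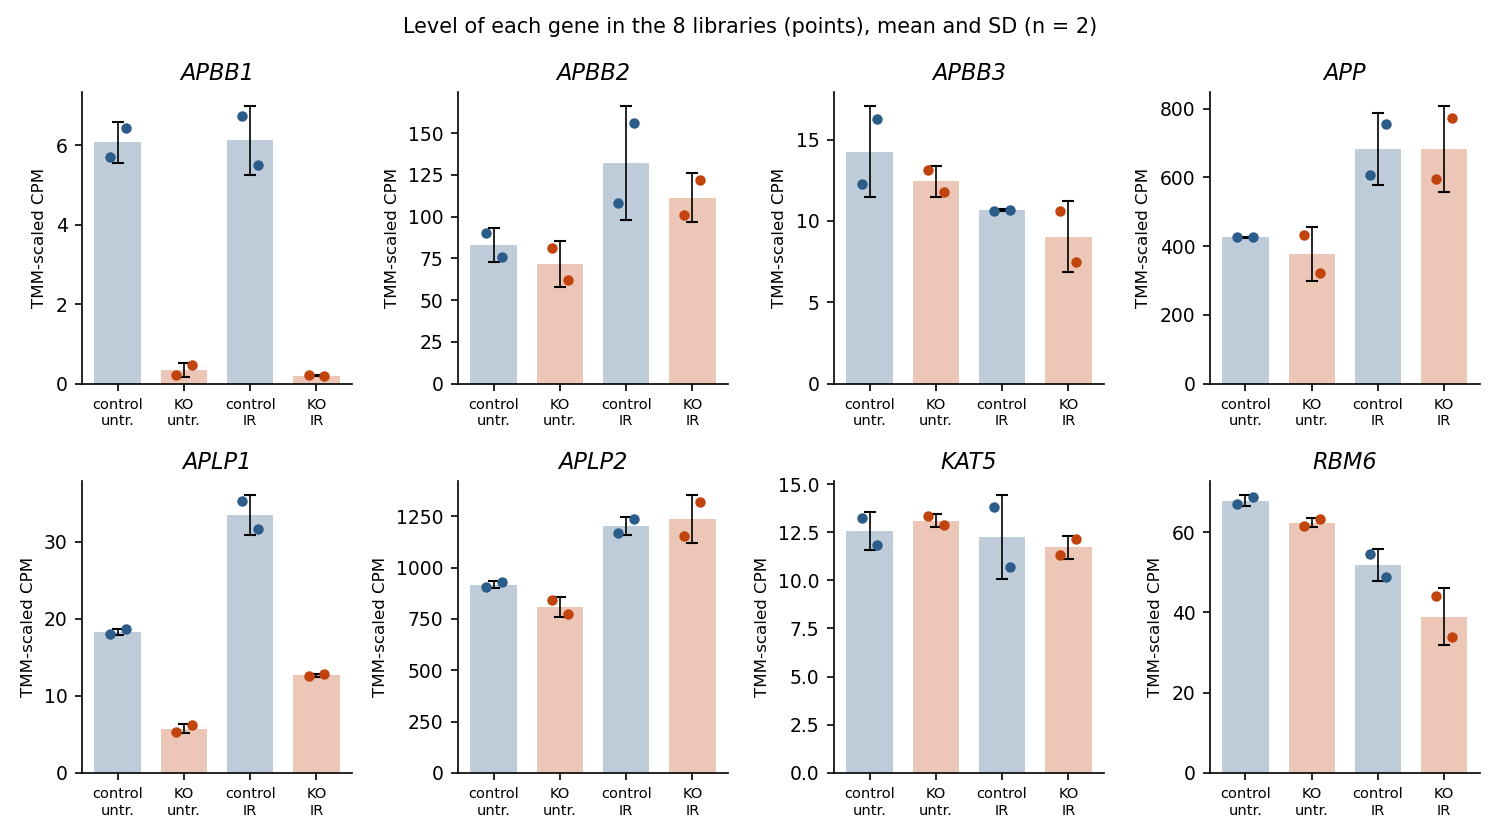
TMM-scaled CPM (linear axis from 0) of the 7 members and RBM6 in the 4 groups. Points are libraries, bars the mean of 2 libraries and error bars the SD. APBB1 and APLP1 were lower in both RBM6-KO groups than in the control groups, with no overlap, whereas the other 5 members sat near the control level.

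APBB1, the founding member of the Fe65 family, was at 5.71 and 6.44 CPM in untreated control cells (93 and 120 counts) and at 0.225 and 0.476 CPM in untreated RBM6-KO cells (4 and 7 counts). After IR it was at 6.73 and 5.505 CPM in control cells (104 and 171 counts) and at 0.206 and 0.196 CPM in RBM6-KO cells (4 and 4 counts). The genotypes did not overlap in either condition, and each RBM6-KO library had 4 or more counts. The group means fell from 6.07 ± 0.515 to 0.351 ± 0.178 CPM untreated and from 6.12 ± 0.869 to 0.201 ± 0.00740 CPM after IR (SD, n = 2). The fitted level was 17.6-fold lower untreated (log2 fold change -4.14, 95% interval -5.03 to -3.25) and 29.3-fold lower after IR (log2 fold change -4.87, 95% interval -5.78 to -3.96). Counting error alone leaves the summed RBM6-KO level between 0.169 and 0.606 CPM untreated and between 0.0868 and 0.396 CPM after IR (exact 95% Poisson intervals). Because the gene set was built around this difference, it is given as a description, without a p-value.

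Between genes, levels were compared per kilobase of exon. In untreated control cells APLP2 stood highest at 122.8 ± 2.27 CPM per kb (SD, n = 2), followed by APP at 64.4 ± 0.139, APBB2 at 6.404 ± 0.785, APLP1 at 5.18 ± 0.113, APBB3 at 3.95 ± 0.779, KAT5 at 3.37 ± 0.266 and APBB1 at 1.16 ± 0.0983. Only APBB3 and KAT5 overlapped as neighbours in that order, and dividing by the longest transcript in place of the union of exons exchanged these 2. After IR the order in control cells was the same except that KAT5 and APBB3, which again overlapped, changed places and that APBB2 and APLP1 overlapped. In RBM6-KO cells APLP1 stood below APBB3 and KAT5 untreated, at 1.62 ± 0.180 CPM per kb, and above them after IR, at 3.58 ± 0.0491. Per kilobase of the longest transcript, however, APLP1 (5.34) and KAT5 (5.24) overlapped in RBM6-KO cells after IR. APBB1 was last in every group and thus the scarcest member before the knockout, at 10.1% ± 0.774 of the summed Fe65 family level per length, beside 55.6% ± 7.26 for APBB2 and 34.3% ± 6.48 for APBB3 (SD, n = 2). In untreated RBM6-KO cells these shares were 0.775% ± 0.485, 60.9% ± 2.98 and 38.3% ± 2.50. After IR, APBB1 held 8.39% ± 2.62 of the family in control cells and 0.345% ± 0.0289 in RBM6-KO cells. The summed family level was 11.5 ± 0.0919 and 9.04 ± 1.28 CPM per kb in untreated control and RBM6-KO cells and 14.3 ± 2.49 and 11.2 ± 0.523 CPM per kb after IR. The sum was lower in RBM6-KO cells in both conditions, without overlap. It includes APBB1, so part of this fall was fixed when the set was built. A sum without APBB1 was not tested. The paralogs were also tested on their own.

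Neither paralog passed the test between genotypes, and both had fitted values below those of control cells. APBB2 (Fe65L1), the closest relative of APBB1, was at 90.1 and 75.7 CPM in untreated control cells and at 81.2 and 62.0 CPM in untreated RBM6-KO cells. After IR it was at 108 and 156 CPM in control cells and at 101 and 122 CPM in RBM6-KO cells. The genotypes overlapped in both conditions, and the log2 fold change was -0.22 (SE 0.17, 95% interval -0.57 to 0.13, adjusted p = 0.542) untreated and -0.24 (SE 0.22, 95% interval -0.75 to 0.26, adjusted p = 0.807) after IR. APBB3 (Fe65L2), the shortest of the 3 proteins, was at 12.3 and 16.3 CPM in untreated control cells and at 13.1 and 11.8 CPM in untreated RBM6-KO cells. It was at 10.6 and 10.7 CPM in control cells and at 10.6 and 7.49 CPM in RBM6-KO cells after IR. After IR the genotypes did not overlap, although 10.62 and 10.58 CPM, the nearest libraries, were almost level. The log2 fold change was -0.21 (SE 0.22, 95% interval -0.67 to 0.25, adjusted p = 0.693) untreated and -0.23 (SE 0.24, 95% interval -0.80 to 0.34, adjusted p = 0.853) after IR.

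A fit over all 8 libraries, which averages the genotype difference over both treatments, narrowed these intervals. It is not independent of the comparisons just given. The level in RBM6-KO cells relative to control was 0.853 for APBB2 (95% interval 0.684 to 1.06) and 0.860 for APBB3 (95% interval 0.674 to 1.10). A rise of more than 1.10-fold lay outside the interval of both paralogs, whereas falls to 0.684 and 0.674 of the control level, the lower bounds, did not. APBB3 shares 7.59% of its exon length with SLC35A4, which runs on the opposite strand and was at 81.1 to 104 CPM. Since the sources used here do not say whether counting used strand, reads from that stretch cannot be told apart, and SLC35A4 had log2 fold changes of 0.06 and 0.05 between genotypes.

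**Figure D2:**
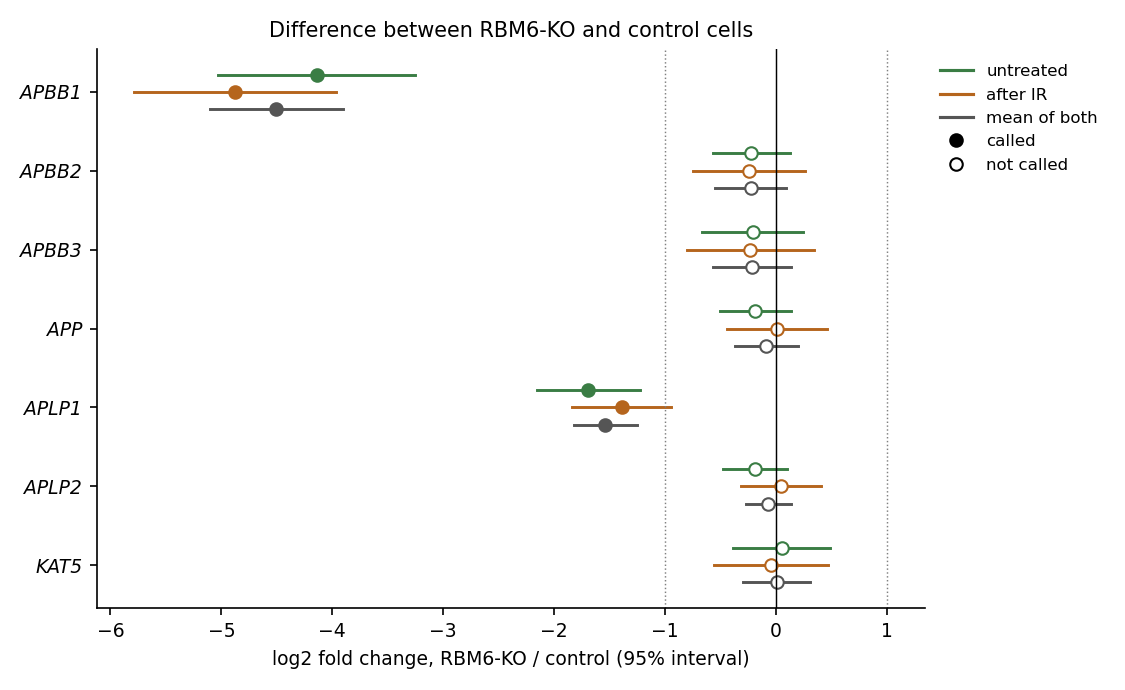
Log2 fold change of each member in RBM6-KO against control cells (points) with its 95% interval (lines), untreated, after IR and averaged over both. Filled points were called (adjusted p under 0.05 and at least 2-fold, dotted lines), which held for APBB1 and APLP1 in all 3 fits. The intervals of the other 5 members all include 0.

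Among the membrane partners, APLP1 fell in RBM6-KO cells in both conditions while APP and APLP2 did not pass the test. APLP1, a member of the APP family found mainly in neurons, was at 18.1 and 18.6 CPM in untreated control cells (294 and 347 counts) and at 5.29 and 6.19 CPM in untreated RBM6-KO cells (94 and 91 counts). After IR it was at 35.3 and 31.6 CPM in control cells and at 12.5 and 12.8 CPM in RBM6-KO cells. Every RBM6-KO library was below every control library, treated or not. APLP1 was 3.23-fold lower untreated (log2 fold change -1.69, SE 0.22, 95% interval -2.15 to -1.23, adjusted p = 9.20e-05 from edgeR) and 2.63-fold lower after IR (log2 fold change -1.39, SE 0.19, 95% interval -1.84 to -0.95, adjusted p = 0.0235 from edgeR). The comparisons share no library. APLP1 stayed called whichever library was left out, with log2 fold changes of -1.79 to -1.59 untreated and -1.48 to -1.33 after IR. It was not called by a test against a 2-fold change itself (adjusted p = 0.0659 untreated and 0.764 after IR from glmTreat in edgeR).

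APP, the amyloid precursor protein, was at 426 and 425 CPM in untreated control cells and at 433 and 321 CPM in untreated RBM6-KO cells. After IR it was at 608 and 757 CPM in control cells and at 595 and 772 CPM in RBM6-KO cells. These ranges overlapped, and the log2 fold change was -0.19 (SE 0.15, adjusted p = 0.597) untreated and 0.01 (SE 0.19, adjusted p = 0.996) after IR. The untreated value was 0.03 (adjusted p = 0.948) without RBM6-KO untreated B and -0.43 (adjusted p = 0.0460), past the adjusted p alone, without RBM6-KO untreated A. APLP2, the most abundant member, was at 905 and 929 CPM in untreated control cells and at 843 and 774 CPM in untreated RBM6-KO cells. After IR it was at 1171 and 1236 CPM in control cells and at 1156 and 1320 CPM in RBM6-KO cells. Untreated libraries of the genotypes did not overlap, yet the difference was small, with log2 fold changes of -0.19 (SE 0.14, adjusted p = 0.514) untreated and 0.05 (SE 0.15, adjusted p = 0.970) after IR. Averaged over both treatments, the level relative to control was 0.942 for APP (95% interval 0.772 to 1.15) and 0.953 for APLP2 (95% interval 0.828 to 1.10), beside 0.344 for APLP1 (95% interval 0.283 to 0.418). Since APLP1 made up 2.69% ± 0.0276 of the APP family level per length in control and 0.983% ± 0.215 in RBM6-KO cells without IR (SD, n = 2), the summed level of the family rested on APP and APLP2 in both.

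KAT5, the nuclear partner, did not pass the test in any comparison. It was at 13.3 and 11.9 CPM in untreated control cells, 13.3 and 12.9 CPM in untreated RBM6-KO cells, 13.8 and 10.7 CPM in control cells after IR, and 11.3 and 12.2 CPM in RBM6-KO cells after IR. The genotypes overlapped in both conditions. The log2 fold change between genotypes was 0.05 (SE 0.21, adjusted p = 0.940) untreated and -0.05 (SE 0.22, adjusted p = 0.981) after IR, and over both treatments the level relative to control was 1.003 (95% interval 0.812 to 1.24). KAT5 shares 38.6% of its exon length, 1439 bases, with RNASEH2C on the opposite strand, a subunit of ribonuclease H2. RNASEH2C was at 12.4 to 27.0 CPM, beside 10.7 to 13.8 CPM for KAT5, and reads from the shared bases cannot be told apart if strand was not used. RNASEH2C had log2 fold changes of 0.31 untreated (adjusted p = 0.519) and 0.09 after IR (adjusted p = 0.968).

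Of the 7 members, 2 were called untreated and the same 2 after IR, APBB1 and APLP1, and both were lower in RBM6-KO cells. Over all genes tested, 3.12% were called untreated (1.97% called and lower) and 1.17% after IR (0.815% called and lower). In the fit over both treatments the members called were again APBB1 and APLP1, beside 3.4% of all genes called and 2.2% called and lower. The median log2 fold change of the 7 members was -0.21 untreated and -0.23 after IR, beside 0.01 and 0.02 over all genes. Apart from APBB1, which the set was built around, 1 of 6 members differed between genotypes.

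APLP1 was not the only gene of its neighbourhood to be low. KIRREL2 (ENSG00000126259, chr19:35855861-35867136), a cell adhesion molecule of the immunoglobulin superfamily, lies upstream of APLP1 on the same strand and ends 763 bases before APLP1 starts. It was at 0.614 and 1.72 CPM in untreated control cells (10 and 32 counts) and at 1.10 and 1.42 CPM in control cells after IR (17 and 44 counts). All 4 RBM6-KO libraries had a count of 0. Against the highest level that 3 counts per library allow in RBM6-KO cells, KIRREL2 was at least 5.71-fold lower untreated (adjusted p = 0.00254 from edgeR) and at least 8.13-fold lower after IR (adjusted p = 0.0329 from edgeR). It was the only called gene among the 34 tested within 500 kb of APLP1 untreated and among the 29 tested after IR. Over all genes 3.12% were called untreated and 1.17% after IR, so the untreated count is near the share of all genes. The medians of the log2 fold changes in this window were -0.01 untreated and -0.03 after IR. NFKBID, the tested gene nearest on the other side of APLP1, had log2 fold changes of -0.39 untreated and 0.04 after IR. The window around APLP1 was added after APLP1 had been called, so that KIRREL2 and NFKBID were chosen with their values known.

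No such neighbour was found around APBB1. Of 56 annotated genes within 500 kb, 14 were tested untreated and 13 after IR. In either comparison 0 were called by edgeR or by DESeq2, beside 3.12% of all genes called by edgeR untreated and 1.17% after IR. An unadjusted p under 0.05 from edgeR was found for 0, beside 18.4% and 11.1% of all genes. The log2 fold changes of the genes tested in this window ran from -0.32 to 0.58 untreated and from -0.74 to 0.31 after IR, with medians of 0.02 and 0.00. SMPD1, acid sphingomyelinase, whose annotated end lies next to the 3′ end of APBB1, had 0.06 untreated and -0.08 after IR, and TRIM3, the nearest tested gene upstream, had 0.01 and -0.04. Among the genes tested in this window APBB1 was the only one called between genotypes, and so few genes can hold 0 calls at the shares of all genes.

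**Figure D3:**
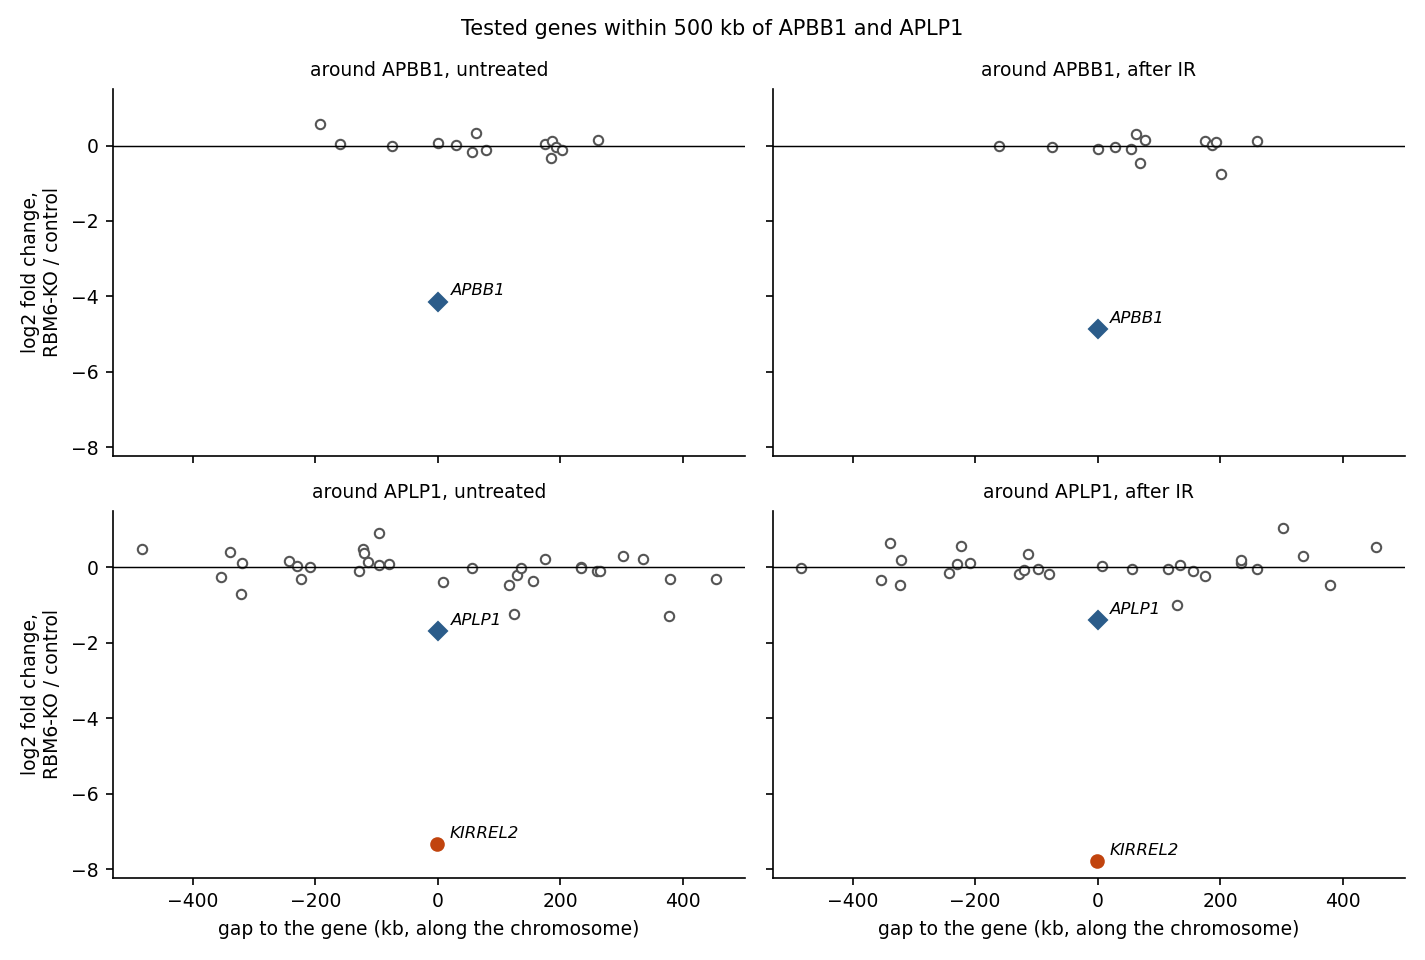
Log2 fold change in RBM6-KO against control cells of the tested genes within 500 kb of APBB1 (top) and APLP1 (bottom), against the gap to that gene in kb, untreated (left) and after IR (right). Diamonds are APBB1 and APLP1, open circles genes that were not called, and filled circles called genes. KIRREL2 had no count in RBM6-KO cells, so its plotted depth depends on the prior count of the fit and only its lower bound is given in the text.

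The genes whose profile over the 8 libraries was most like that of APBB1 were found by the root mean square difference between centred log2 CPM values among 16548 other genes. They were PYCARD (0.392), HCG11 (0.401), RNF175 (0.411), GAMT (0.413) and RPL39L (0.421), on chromosomes 16, 6, 4, 19 and 3. PYCARD, the adaptor of inflammasomes, had 35 to 63 counts in each control library and 0 in every RBM6-KO library, at least 12.7-fold lower untreated and at least 13.9-fold lower after IR. GAMT, which makes creatine, was at 13.6 ± 2.10 CPM in control and 0.700 ± 0.124 CPM in RBM6-KO cells untreated (SD, n = 2). RPL39L, a paralog of a ribosomal protein gene, was at 3.82 ± 0.242 and 0.136 ± 0.192 CPM in the same groups. These genes were chosen for likeness in level, so their values are a description. Among the members, APLP1 came nearest with a difference of 1.44, at rank 219, and the other 5 lay between 1.96 and 2.10.

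The members were next compared between irradiated and untreated cells. In control cells 0 of the 7 members were called by edgeR or by DESeq2, beside 3.59% of all genes called by edgeR, although 4 had an unadjusted p under 0.05, as 25.4% of all genes did, and 2 passed the adjusted p alone and were higher, beside 2.81% of all genes. In RBM6-KO cells 6 members were tested, since APBB1 was removed by the filter on low counts. APLP1 was called and higher there, beside 3.11% of all genes called and 1.13% called and higher, and 3 members passed the adjusted p alone and were higher, beside 2.44% of all genes. By their fitted values APBB2, APP, APLP1 and APLP2 were higher in both genotypes, passing the adjusted p or not. The share of all genes higher in both genotypes was not counted.

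APLP1 was higher after IR in both genotypes. Its log2 fold change was 0.86 in control (SE 0.20, 95% interval 0.42 to 1.30, adjusted p = 0.0342 from edgeR) and 1.13 in RBM6-KO cells (SE 0.21, 95% interval 0.65 to 1.61, adjusted p = 0.0253 from edgeR). All irradiated libraries were above all untreated libraries of their genotype, at 1.81-fold and 2.19-fold. In RBM6-KO cells APLP1 stayed called whichever library was left out (log2 fold change 1.02 to 1.24). In control cells the adjusted p was 0.221 without control untreated A and 0.254 without control untreated B. The level in irradiated RBM6-KO cells, 12.7 ± 0.174 CPM, remained below that of untreated control cells, 18.3 ± 0.400 CPM (SD, n = 2).

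APP was also higher after IR, by 0.67 on the log2 scale in control (SE 0.17, adjusted p = 0.0419) and 0.84 in RBM6-KO cells (SE 0.19, adjusted p = 0.0409), below 2-fold in both. The 2 irradiated libraries of a group differed, at 608 against 757 CPM in control cells and 595 against 772 CPM in RBM6-KO cells, and the B library was the higher in both. In RBM6-KO cells APP was called without RBM6-KO untreated A (1.08) or without RBM6-KO IR A (1.02), and its adjusted p was 0.134 without RBM6-KO untreated B and 0.215 without RBM6-KO IR B. In control cells it was 0.274 without control untreated A and 0.374 without control untreated B. APLP2 had log2 fold changes of 0.38 in control cells (SE 0.16, adjusted p = 0.169) and 0.60 in RBM6-KO cells (SE 0.15, adjusted p = 0.0482), the latter at 0.227 without RBM6-KO untreated B and 0.363 without RBM6-KO IR B. Irradiated and untreated libraries of APP and APLP2 did not overlap in either genotype. The same held for APBB2, APLP1 and APBB3, of which APBB3 was lower after IR and did not pass the test. The share of all genes without overlap was not counted.

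Within the Fe65 family the fitted responses differed in sign. APBB2 had log2 fold changes of 0.67 in control cells (SE 0.20, 95% interval 0.24 to 1.10, adjusted p = 0.0666) and 0.62 in RBM6-KO cells (SE 0.18, 95% interval 0.22 to 1.03, adjusted p = 0.0670) from edgeR. By DESeq2's Wald test the adjusted p was 0.0338 and 0.0199. APBB3 had -0.43 (SE 0.24, 95% interval -0.95 to 0.09, adjusted p = 0.275) and -0.48 (SE 0.23, 95% interval -0.99 to 0.04, adjusted p = 0.195). Its values of 12.3 and 16.3 CPM in untreated control cells lay above the 10.6 and 10.7 CPM after IR. APBB1 had -0.01 in control cells (SE 0.27, 95% interval -0.59 to 0.57, adjusted p = 0.989), and KAT5 had -0.05 (SE 0.24, 95% interval -0.57 to 0.47, adjusted p = 0.914) in control and -0.18 (SE 0.19, 95% interval -0.61 to 0.26, adjusted p = 0.564) in RBM6-KO cells. Neither APBB1 nor KAT5 passed the test.

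**Figure D4:**
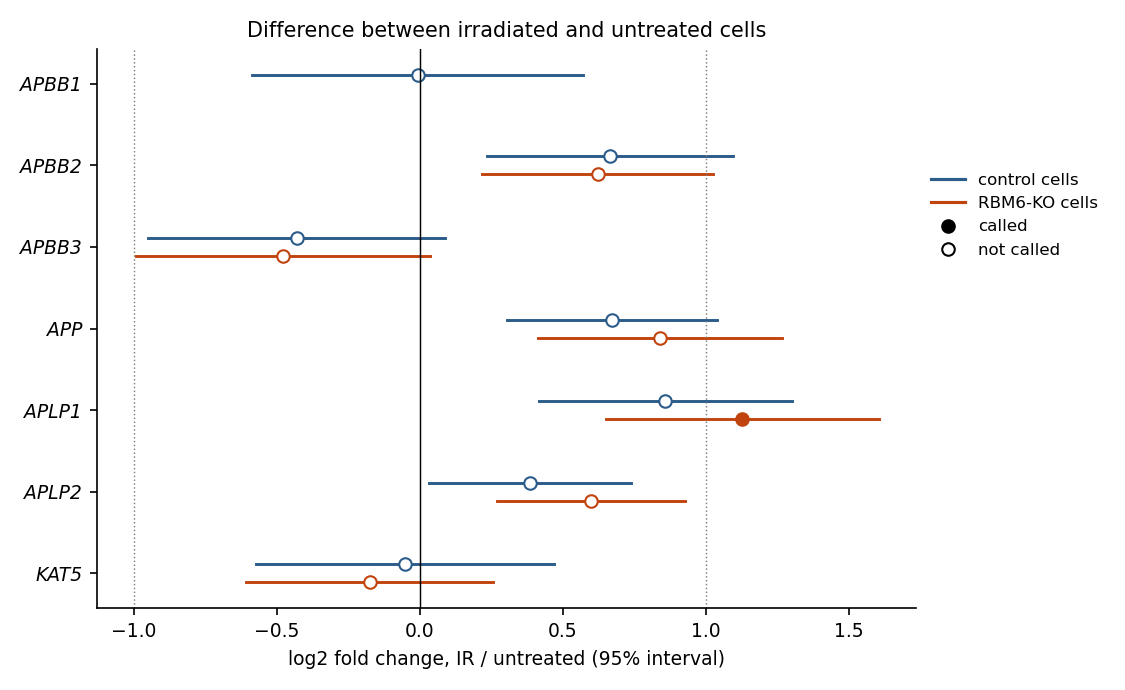
Log2 fold change of each member 12 h after IR against untreated cells (points) with its 95% interval (lines), in control and in RBM6-KO cells. Only APLP1 in RBM6-KO cells was called (filled point), and APBB1 was not tested in RBM6-KO cells. The intervals of the genotypes overlap for every member tested in both.

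Whether the response to IR differed between genotypes was tested as an interaction over all 8 libraries. None of the 7 members passed, as was the case for all 16549 genes tested (0.0% at an adjusted p under 0.05 by edgeR). Of these genes 306 had an unadjusted p under 0.05, DESeq2 called 0, and edgeR without a filter called 1. The interaction was 0.28 for APLP1 (95% interval -0.28 to 0.83), 0.22 for APLP2 (95% interval -0.18 to 0.63) and 0.18 for APP (95% interval -0.40 to 0.75) on the log2 scale. For APBB1 it was -0.74 (95% interval -2.16 to 0.67), with 4 to 7 counts in the RBM6-KO libraries. A difference between the responses of the genotypes could thus lie anywhere between these bounds. The other 3 members lay between -0.12 and -0.04.

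The genes around the members in the pathway were described by lists chosen with earlier results of these data known. Over all genes edgeR called 3.12% untreated and 1.17% after IR between genotypes. For IR against untreated it called 3.59% in control and 3.11% in RBM6-KO cells. The 17 other subunits of the TIP60 complex were all tested and 0 were called in any pairwise comparison by edgeR or DESeq2, while 2 had an unadjusted p under 0.05 untreated and 0 after IR between genotypes, beside 18.4% and 11.1% of all genes. They had medians of -0.06 untreated and 0.06 after IR. Their lowest and highest values untreated were -0.42, for the scaffold TRRAP (adjusted p = 0.213), and 0.32. MRGBP, a subunit that binds the MORF-related proteins of the complex, was at 66.4 and 62.7 CPM in control and 48.1 and 53.3 CPM in RBM6-KO cells untreated, a log2 fold change of -0.36 (adjusted p = 0.203), and -0.40 after IR (adjusted p = 0.465). Of the 4 other MYST acetyltransferases 0 were called by either tool and 0 had an unadjusted p under 0.05, and KAT7 and KAT6B had 0.22 and 0.33 untreated.

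The 11 genes of APP cleavage, which encode the α-, β- and γ-secretases, had 0 called genes between genotypes by edgeR or DESeq2. An unadjusted p under 0.05 was found for 0 of them, beside 18.4% of all genes untreated and 11.1% after IR. Medians of the list between genotypes were -0.07 untreated and -0.04 after IR. Between irradiated and untreated cells edgeR called 0 of the 11 genes, and DESeq2 called 1, ADAM9 in RBM6-KO cells. An unadjusted p under 0.05 from edgeR was found for 3 of 11 in control and 6 of 11 in RBM6-KO cells, beside 25.4% and 29.6% of all genes. The median of the list after IR was 0.43 in control and 0.43 in RBM6-KO cells, beside 0.02 and -0.01 over all genes. ADAM17, an α-secretase, had 0.96 in control cells (adjusted p = 0.0482) but only without control IR A did its adjusted p stay under 0.05 when a library was left out. In RBM6-KO cells ADAM9, another α-secretase, had 0.998 (adjusted p = 0.0371), and 0.65 without RBM6-KO IR B (adjusted p = 0.164). NCSTN, the γ-secretase subunit nicastrin, had 0.60 (adjusted p = 0.0474), and its adjusted p reached 0.293 when a library was left out.

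Of the 12 other adaptors that bind the APP tail, 10 were tested and 0 were called in any pairwise comparison by edgeR or DESeq2. Between genotypes 1 had an unadjusted p under 0.05 untreated and 0 after IR, beside 18.4% and 11.1% of all genes. Untreated, all 10 had a negative log2 fold change in RBM6-KO cells, with a median of -0.37 beside 0.01 over all genes, whereas after IR the median was -0.02 and 5 of 10 were negative. MAPK8IP1 (JIP1), a scaffold of JNK signalling, was at 3.07 and 3.59 CPM in untreated control cells and at 1.41 and 2.11 CPM in untreated RBM6-KO cells. Over both treatments it had -0.81 (95% interval -1.29 to -0.32, adjusted p = 0.0470), and its adjusted p ran from 0.0559 to 0.174 when 1 library was left out. DAB2, a clathrin adaptor, had -0.38 (adjusted p = 0.149) in that fit. SHC1, an adaptor of receptor tyrosine kinases, passed the adjusted p alone after IR in both genotypes, with 0.67 in control (adjusted p = 0.0366) and 0.80 in RBM6-KO cells (adjusted p = 0.0426), and its adjusted p reached 0.441 and 0.243 when a library was left out.

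The 12 other binding partners of Fe65 had 8 genes tested untreated and 9 after IR between genotypes, and 0 were called by edgeR or DESeq2. An unadjusted p under 0.05 from edgeR was found for 2 untreated and 1 after IR, beside 18.4% and 11.1% of all genes. The partners with the smallest p over both treatments were LRP8, a lipoprotein receptor that binds reelin, at -0.41 (adjusted p = 0.0624), and its relative VLDLR at 0.73 (adjusted p = 0.0915). LRP1, a large endocytic receptor that Fe65 links to APP, had 0.92 after IR in control cells (adjusted p = 0.0182, and 0.171 without control untreated A).

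Among 5 genes reported as targets of Fe65 or of the intracellular domain of APP, XRCC2 was called between genotypes untreated and 0 after IR. Over all genes 3.12% and 1.17% were called. Of the 5 genes, 4 had fitted values above 0 untreated and 3 after IR, with medians of 0.14 and 0.21. An unadjusted p under 0.05 from edgeR was found for 2 and 1, beside 18.4% and 11.1% of all genes. XRCC2, which acts in homologous recombination, was at 6.94 and 5.90 CPM in untreated control cells and at 12.5 and 14.2 CPM in untreated RBM6-KO cells. The log2 fold change was 1.04 (SE 0.23, 95% interval 0.56 to 1.52, adjusted p = 0.00874 from edgeR), just past 2-fold. It fell below 2-fold without control untreated B or RBM6-KO untreated B, with 0.94 as the lowest value. After IR it was at 7.32 and 9.72 CPM in control and 9.70 and 10.1 CPM in RBM6-KO cells, a log2 fold change of 0.21 (SE 0.24, adjusted p = 0.862). The study reported lower XRCC2 mRNA in RBM6-KO clones than in control cells by RT-qPCR, the direction opposite to these fitted values. MME (neprilysin), a peptidase that degrades amyloid-β, had 0.64 untreated (adjusted p = 0.0530) and 0.80 after IR (adjusted p = 0.292). Over both treatments MME had 0.72 (adjusted p = 0.0395), and its adjusted p reached 0.198 when a library was left out.

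**Figure D5:**
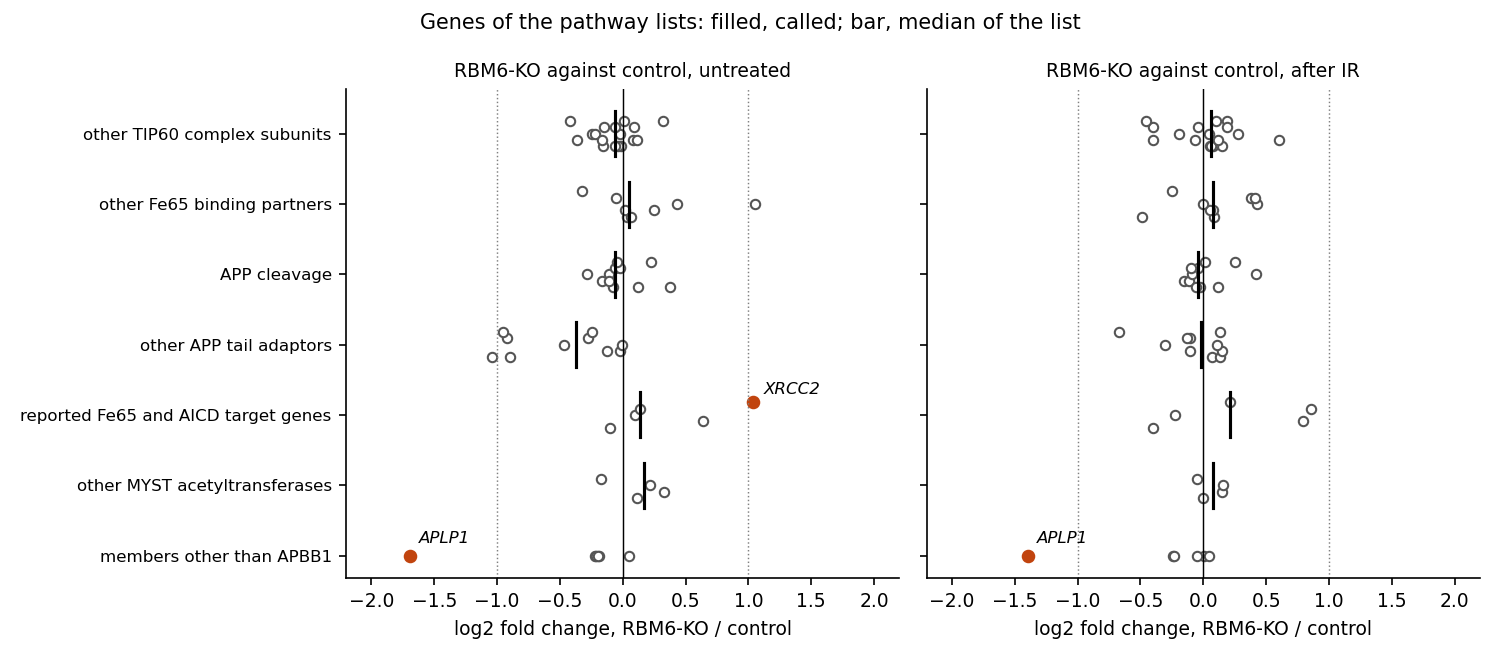
Log2 fold change in RBM6-KO against control cells of each tested gene of the pathway lists and of the 6 members other than APBB1, untreated (left) and after IR (right). Filled points were called, vertical bars are the medians of the lists and dotted lines mark 2-fold. Besides APLP1, XRCC2 was the only called gene, and only untreated.

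Because APBB1 and APLP1 are neuronal genes, markers of other cell types were read in the same libraries. All libraries came from the cultured MCF10A line, so the values below are levels of marker genes in that line, not shares of other cell types. In bulk RNA, fewer cells of the line with a marker and less of its RNA per cell cannot be told apart. The summed level of the 12 breast epithelial markers was 12000 to 14620 CPM in untreated control, 10810 to 10930 CPM in untreated RBM6-KO, 11510 to 11970 CPM in control IR and 9230 to 9780 CPM in RBM6-KO IR libraries. LAMB3 made up most of each of these sums, so they mainly follow 1 gene. It had 122529 and 177864 counts in untreated control and 117631 and 97056 counts in untreated RBM6-KO libraries. EPCAM, an epithelial adhesion molecule of that list, was lower in RBM6-KO cells, at -1.79 untreated (adjusted p = 4.43e-05) and -1.82 after IR (adjusted p = 0.0151). KRT14, a keratin of the same list, went the other way. It was at 42.5 and 62.9 CPM in control and 78.1 and 105.6 CPM in RBM6-KO cells untreated. After IR it was at 29.3 and 27.6 CPM in control and 45.3 and 50.0 CPM in RBM6-KO cells. Of the 12 markers, 9 were below 0 untreated and 11 after IR, with medians of -0.31 and -0.36. The 8 neuronal markers summed to 6.76 to 8.78 CPM in control and 11.8 to 12.0 CPM in RBM6-KO cells untreated, and to 6.93 to 8.34 and 10.5 to 13.2 CPM after IR. NEFL was at 0 in every library and STMN2 at 0 in every untreated library. SNAP25, a synaptic protein of that list, was higher in RBM6-KO cells, at 2.202 untreated (adjusted p = 0.00690) and 3.07 after IR (adjusted p = 0.0184), opposite to APBB1 and APLP1. The 6 fibroblast markers summed to 81.1 to 81.6 and 118.8 to 154.9 CPM untreated and to 91.1 to 108 and 173 to 211 CPM after IR, in control and RBM6-KO cells. DCN made up most of these sums, with 69.5 and 66.6 CPM in control and 145 and 112 CPM in RBM6-KO cells untreated, and COL1A1 went the other way, at -0.74 untreated (adjusted p = 0.0864) and -1.17 after IR (adjusted p = 0.0612). The median of the tested fibroblast markers was 0.08 untreated and -0.70 after IR, where 2 of 3 were below 0. COL1A2 and COL3A1 had at most 1 count in any library. The 7 leukocyte and endothelial markers summed to at most 6.53 CPM. The part of these differences in the results for APLP1 was not tested.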

How the data were processed

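RNA-seq was analysed for control and RBM6-KO MCF10A cells, untreated or after IR. The deposited table holds un-normalized counts by Ensembl identifier, made by the authors on hg38, and the submitters' processing notes name STAR and DESeq2. The counter, annotation and use of strand are not given in the sources used here. GENCODE v44 held 57392 of the identifiers and lacked 841. Tests used edgeR 4.0.16 under R 4.3.3 (quasi-likelihood, TMM, filterByExpr, Benjamini-Hochberg over all genes), each pairwise comparison on its own libraries, and the interaction and mean genotype fits on all 8. A call needed an adjusted p under 0.05 and at least a 2-fold change (adjusted p alone for the interaction). The SE was the size of the log2 fold change divided by the square root of F. DESeq2 1.42.0, other normalizations, filters, prior counts and libraries were alternatives. The fits were tested on simulated counts. Intervals on counts and the limits for a count of 0 cover counting error only. The members and lists were chosen with earlier results of these data known. Genes were named if they were members, RBM6, called near APBB1 or most like APBB1. Genes that share exon bases with a member were named if they were tested. Other counted genes of this kind had at most 4 counts in any library. Within a list, genes were named if they were called or had the 2 smallest p over both treatments. Others, passing the adjusted p alone or chosen as markers, neighbours or for their place in the pathway (KIRREL2, NFKBID, SMPD1, TRIM3, ADAM9, ADAM17, SHC1, LRP1 and single markers), were chosen after their values were seen. Promoter sequences and splicing were not used here, and 1 gene of a list is not reported here.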

Additional observations from a re-analysis of the deposited data

Results flagged for a closer look

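KAT5 had its genotype difference in opposite directions untreated and after IR. Both untreated RBM6-KO libraries were above the control mean and both irradiated ones below it. The interaction was -0.12 on the log2 scale (unadjusted p = 0.682 from edgeR's quasi-likelihood test, adjusted p = 1.0).

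XRCC2 had an IR response of 0.41 in control cells and -0.44 in RBM6-KO cells, with every library of one genotype moved one way and every library of the other the opposite way. The interaction was -0.85 on the log2 scale (95% interval -1.51 to -0.18, unadjusted p = 0.0172 from edgeR, adjusted p = 1.0), so it did not pass the adjustment over all genes.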

How the results depend on the processing

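With 2 libraries per group, a fit without 1 library assumes that the lone library varies like the others. Of 568 refitted log2 fold changes of members, 528 kept their direction and call, 35 changed sign, 3 lost and 2 gained a call, and no cause was tested. The block for the replicate letter changed no call of a member (APBB1 -4.14 and APLP1 -1.69 untreated). The letters were not taken as pairs, since the deviations of A and B correlated between groups at -0.28 to 0.35. The highest value, 0.35, was between control IR and RBM6-KO IR, the groups of the genotype comparison after IR. With the block, APP and APLP1 in control cells and APLP2 in RBM6-KO cells no longer passed the adjusted p alone (0.0666, 0.0576 and 0.171). By glmTreat 1 member was called in either genotype comparison, and 0 after IR in RBM6-KO cells, APLP1 having -1.69 (adjusted p = 0.0659), -1.39 (0.764) and 1.13 (1.0). By the adjusted p alone 2 members passed after IR in control and 3 in RBM6-KO cells. Without 1 library the members called after IR in RBM6-KO cells ran from 1 to 2. Per count, the APBB1 share was 5.91%, 4.28% (IR) and 0.168% (RBM6-KO IR). Within 1000 kb of APBB1, 1 and 2 genes were called after IR in control and RBM6-KO cells.

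Sign changes reached at most 0.25 on the log2 scale, for the APBB2 interaction. By upper quartile normalization APP was -0.0023 after IR between genotypes and KAT5 -0.0072 over both treatments, and KAT5 was -0.0096 there with no filter. For APBB1 after IR in control cells, DESeq2 gave 0.012, no filter 0.042 and all 8 libraries 0.0014. Without 1 library, the untreated genotype difference ran from -0.40 to 0.022 for APBB3, -0.43 to 0.027 for APP and -0.015 to 0.13 for KAT5, and after IR from -0.49 to 0.046 for APBB2, -0.19 to 0.18 for APP, -0.052 to 0.13 for APLP2 and -0.23 to 0.13 for KAT5. The IR response in control cells ran from -0.15 to 0.13 for APBB1 and -0.24 to 0.12 for KAT5. The interaction ran from -0.28 to 0.25 for APBB2, -0.31 to 0.18 for APBB3, -0.032 to 0.41 for APP and -0.30 to 0.071 for KAT5, and the mean genotype difference from -0.20 to 0.0075 for APP and -0.084 to 0.098 for KAT5. Over all genes, the calls of 486 untreated, 182 after IR between genotypes, 553 and 485 for IR in control and RBM6-KO cells and 562 for the mean genotype difference moved with the setting. Untreated calls ran from 118 (glmTreat) to 952 (adjusted p alone), those after IR between genotypes from 46 to 541, IR calls from 17 to 962 in control and 12 to 1011 in RBM6-KO cells, and mean genotype calls from 164 to 1437. Without 1 library they ran from 284 to 492 after IR between genotypes and from 297 to 1376 and 225 to 1650 for IR in control and RBM6-KO cells.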

Other observations

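Single markers of cell types moved that belong in no comparison of the members, and members of 1 list moved in different directions. Among the breast epithelial markers, CDH1 (E-cadherin) was higher after IR in control cells, by 1.18 on the log2 scale (adjusted p = 0.0162 from edgeR). It fell below 2-fold without control untreated A, where the adjusted p was 0.117, or without control IR B. KRT14, a basal keratin, went the other way after IR, at -0.90 in control (adjusted p = 0.0359) and -0.96 in RBM6-KO cells (adjusted p = 0.0245), and KRT18 was at -0.59 in control cells (adjusted p = 0.0990). The adjusted p of KRT14 was 0.514 without control untreated B and 0.101 without RBM6-KO untreated B.

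Among the fibroblast markers, DCN (decorin) was higher in RBM6-KO than in control cells after IR, at 1.11 (adjusted p = 0.0389), and fell below 2-fold without control IR A or RBM6-KO IR B, with 0.96 as the lowest value. In the same comparison COL1A1 was at -1.17 (adjusted p = 0.0612) and PDGFRB at -0.70 (adjusted p = 0.660). Over both treatments COL1A1 was lower in RBM6-KO cells, at -0.95 (adjusted p = 0.00450), below 2-fold. PDGFRB was higher after IR in control cells, with 5 and 1 counts untreated and 17 and 53 after IR (log2 fold change 3.004, adjusted p = 0.0264, and 0.144 without control untreated B). PECAM1, an adhesion molecule of endothelium and leukocytes, had 29 to 44 counts in untreated control and 56 to 93 in untreated RBM6-KO libraries, and was higher in RBM6-KO cells over both treatments at 1.37 (adjusted p = 0.00863), a call that held whichever library was left out. These genes were chosen after their values were seen.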
